A study of Mus musculus with 8 samples.

Results

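The tectorial membrane and the other acellular gels of the inner ear were followed through the genes of 8 of their non-collagen proteins, Tecta, Tectb, Otog, Otogl, Otoa, Ceacam16, Oc90 and Otol1. They were found by their symbols among the 47628 entries that name a gene in the count tables of the series, and all 8 were listed in every mouse. Cochlear RNA had been sequenced from 4 wild-type mice (WT, labelled WT_4, WT_5, WT_6 and WT_8) and 4 heterozygous mice (Opa1+/-, labelled Het_2, Het_7, Het_484 and Het_491; values below follow this order), littermates that were untreated and 21 days old. The Opa1+/- animals are knock-in mice with a germline copy of the human delTTAG mutation in Opa1, a gene for a mitochondrial dynamin-like GTPase, in every cell, and both genotypes share a background mixed from C57BL/6 J and 129 Sv/Pas. Each library holds whole cochlear tissue rather than sorted cells, so that fewer cells of a type and less RNA per cell cannot be told apart in any value below. The labels give neither the sex of a mouse nor which of 2 extraction methods was used for it. Names with 3 digits occur in the Opa1+/- group alone, in 2 of its 4 mice, and what they may mark is not given, and for Ceacam16 the value without both is printed below.

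The tectorial membrane is a ribbon of extracellular gel that lies over the hair cells of the organ of Corti and is set in motion against their stereocilia by sound. Collagen fibrils run through it in a matrix of striated sheets built from alpha- and beta-tectorin (Tecta and Tectb) together with Ceacam16. Otogelin (Otog) and otogelin-like (Otogl) are large mucin-related glycoproteins of this and of the vestibular gels, and otoancorin (Otoa) holds its inner edge to the spiral limbus. Otoconin-90 (Oc90) and otolin (Otol1) belong to the otoconia and the gel that carries them in the vestibular organs. In mice the tectorin transcripts are most abundant before hearing begins, whereas Ceacam16 is switched on around that time.

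No difference between Opa1+/- and WT cochleae was detected for any of the 8 genes. Of the 7 abundant enough to be tested, 0 passed an adjusted p of 0.05 in edgeR's quasi-likelihood test over 19366 genes, in which 5 genes (0.0258%) passed, and 0 passed in DESeq2. Without adjustment, 0 of the 7 had an edgeR p-value under 0.05, a share reached by 6.72% of all genes tested. In all 8 genes the values of the 2 genotypes overlapped, and 4.31% of the genes tested showed no overlap. The median log2 fold change of the 7 genes was -0.018, against 3.95e-04 over all genes tested. Opa1 itself, the check of the labels, stood at 111.7 to 125.9 CPM (counts per 1000000 counts of the library, scaled between libraries) in WT and at 60.4 to 70.02 CPM in Opa1+/- mice. Its log2 fold change of -0.87 (standard error 0.068, adjusted p = 0.0051 by edgeR) was in the direction the labels give.

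**Figure D1:**
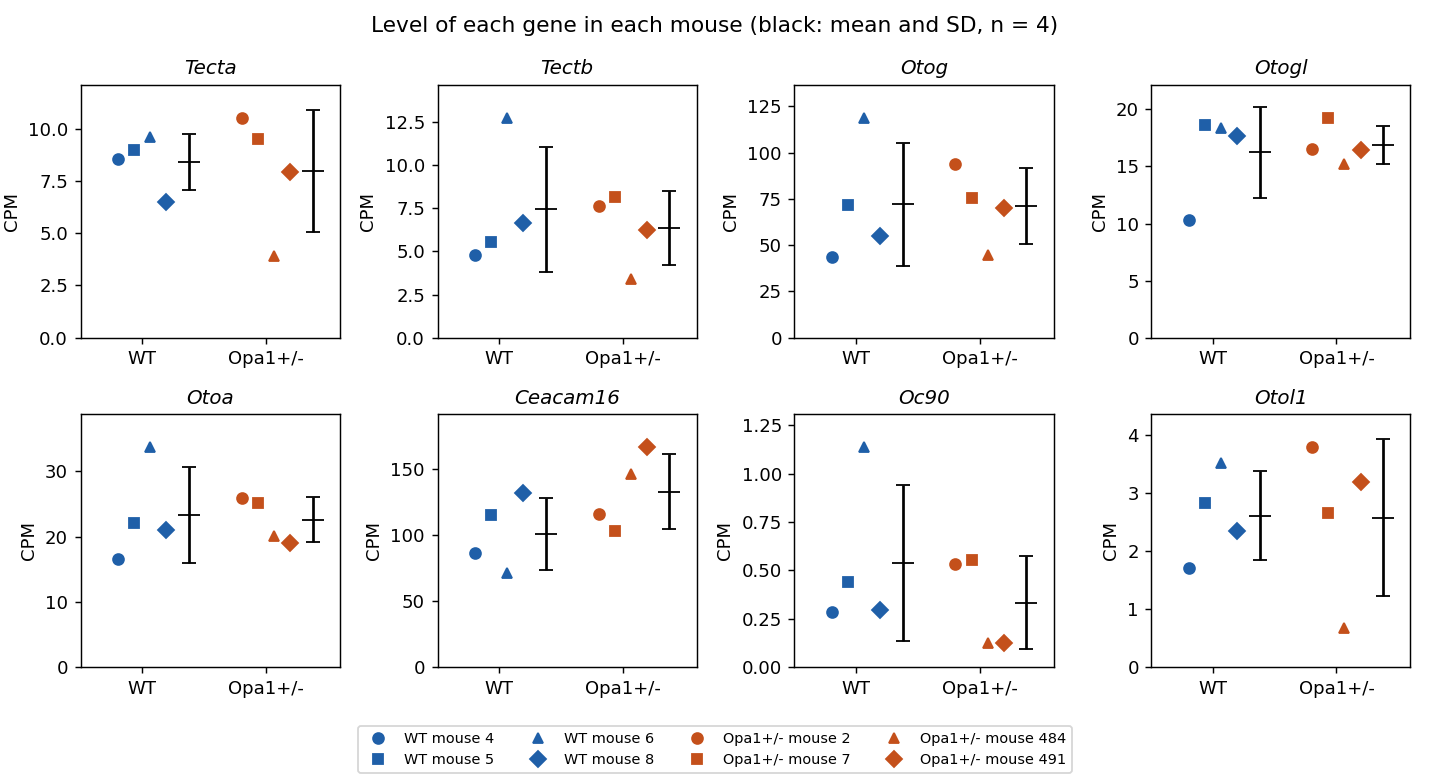
Level in CPM (linear axes from 0) of each of the 8 gel genes in the 4 WT mice (blue) and the 4 Opa1+/- mice (orange), with a marker shape for each mouse and the mean and SD of each genotype in black. The genotypes overlap in all 8 panels, WT_6 is the highest for 4 genes and Het_484 the lowest for 4.

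Tecta encodes alpha-tectorin, a large secreted protein with a zona pellucida domain. It lies on chromosome 9 of GRCm38 from 42329619 to 42399929 on the minus strand, and its longest coding transcript has 24 exons. It stood at 8.56, 8.98, 9.62 and 6.51 CPM in mice WT_4 to WT_8, and at 10.5, 9.52, 3.90 and 7.91 CPM in mice Het_2 to Het_491. Opa1+/- mice thus held both the highest and the lowest value. Genotype means were 8.42 ± 1.34 for WT and 7.97 ± 2.92 for Opa1+/- mice (CPM, SD, n = 4 each). The log2 fold change was -0.075, with a 95% interval from -0.67 to 0.52 in edgeR's fit (adjusted p = 0.965). An antisense gene, Gm47629, overlaps its exons and was not analysed here.

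Tectb encodes beta-tectorin, a shorter zona pellucida protein that copolymerises with alpha-tectorin. It lies on chromosome 19 from 55180733 to 55196313 on the plus strand. Its values were 4.79, 5.52, 12.7 and 6.66 CPM in mice WT_4 to WT_8, and 7.63, 8.17, 3.40 and 6.25 CPM in mice Het_2 to Het_491. WT_6 lay well above every other mouse, and Het_484 was again the lowest. The means were 7.42 ± 3.62 and 6.36 ± 2.13 CPM (SD, n = 4 each), and the log2 fold change was -0.21 with an interval from -0.99 to 0.56 (adjusted p = 0.925 from edgeR). This interval was the widest of the 7 tested genes after that of Otol1, and changes within it cannot be told from 0 with 4 mice a genotype. Tectb overlaps the annotated microRNA Mir6715, which had 0 counts in all mice.

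The proportion of the 2 tectorins, which does not depend on how libraries are scaled, was compared within each mouse. The counts of Tectb divided by those of Tecta gave 0.56, 0.614, 1.32 and 1.02 in mice WT_4 to WT_8. In mice Het_2 to Het_491 they gave 0.725, 0.858, 0.873 and 0.790, a narrower range that lay inside that of WT mice. The mean log2 ratio differed by -0.029 between genotypes (exact two-sided permutation test, p = 0.971, adjusted p = 0.971 over 2 ratios). Het_484, low in both tectorins, therefore had them in a proportion like that of other mice, and WT_6 had more Tectb for its Tecta than any other mouse.

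Otog encodes otogelin, and lies on chromosome 7 from 46240987 to 46311434 on the plus strand, with 56 exons in its longest coding transcript. Its level was 43.4, 71.7, 118.8 and 54.7 CPM in mice WT_4 to WT_8. In mice Het_2 to Het_491 it was 94.0, 75.7, 44.7 and 70.3 CPM. The order of mice was close to that of Tectb, with WT_6 highest and WT_4 and Het_484 lowest. The means, 72.1 ± 33.2 for WT and 71.2 ± 20.3 for Opa1+/- mice (CPM, SD, n = 4 each), were nearly equal. The log2 fold change was -0.018, with an interval from -0.71 to 0.68 (adjusted p = 0.993 from edgeR).

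Otogl encodes the otogelin-like paralog, on chromosome 10 from 107760531 to 107912134 on the minus strand. Mice WT_4 to WT_8 had 10.3, 18.7, 18.4 and 17.6 CPM, and mice Het_2 to Het_491 had 16.6, 19.2, 15.2 and 16.5 CPM. WT_4 was low and the other 7 mice lay close together. The means were 16.2 ± 4.00 and 16.9 ± 1.70 CPM (SD, n = 4 each), with a log2 fold change of 0.055 and an interval from -0.34 to 0.45 (adjusted p = 0.962 from edgeR). Counts of Otogl came to between 0.155 and 0.322 of those of Otog in WT mice and between 0.176 and 0.340 in Opa1+/- mice. This proportion differed by 0.054 on the log2 scale (exact two-sided permutation test, p = 0.8286, adjusted p = 0.971 over 2 ratios).

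Otoa encodes otoancorin, the membrane-anchored protein of the limbus surface, on chromosome 7 from 121081650 to 121163097 on the plus strand. Its level was 16.5, 22.1, 33.6 and 21.1 CPM in mice WT_4 to WT_8, and 26.0, 25.2, 20.1 and 19.1 CPM in mice Het_2 to Het_491. WT mice spanned both extremes and the Opa1+/- mice lay between them. The means were 23.3 ± 7.30 and 22.6 ± 3.48 CPM (SD, n = 4 each), and the log2 fold change was -0.043 with an interval from -0.49 to 0.41 (adjusted p = 0.9752 from edgeR).

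Ceacam16, a secreted member of the carcinoembryonic antigen family, had the most counts of the 8 genes and, among those tested, the fold change furthest from 0. It lies on chromosome 7 from 19852097 to 19861299 on the minus strand. Its level was 86.2, 115.3, 71.3 and 131.9 CPM in mice WT_4 to WT_8, and 116.3, 103.5, 146.4 and 166.6 CPM in mice Het_2 to Het_491. Het_484 and Het_491 lay above all WT mice, and the remaining Opa1+/- mice lay among them. Means of 101.2 ± 27.4 for WT and 133.2 ± 28.6 for Opa1+/- mice (CPM, SD, n = 4 each) gave p = 0.143 in an exact permutation test, two-sided. The log2 fold change was 0.40 with an interval from -0.068 to 0.86, and the adjusted p was 0.7602 from edgeR and 0.887 from DESeq2. The value was 0.26 without WT_6, 0.27 without Het_491, 0.12 without both Opa1+/- mice with 3-digit numbers and 0.55 without WT_8. Exons of Gm19345 lie opposite those of Ceacam16, and since the use of strand in counting was not stated the 2 could share reads. Gm19345 had 15 to 29 counts a mouse against 1193 to 2693 for Ceacam16.

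**Figure D2:**
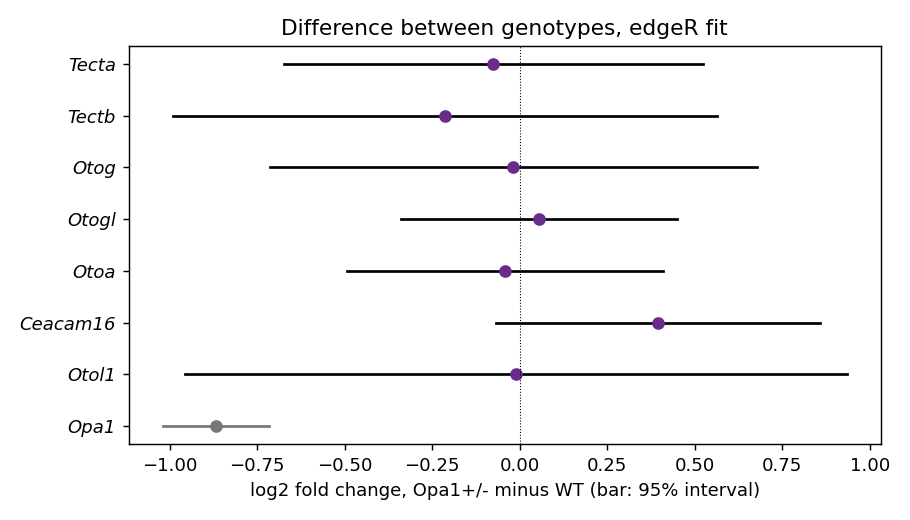
Log2 fold change of Opa1+/- over WT mice (horizontal axis; points) with 95% intervals (bars) from edgeR's quasi-likelihood fit for the 7 tested gel genes and, in grey, for Opa1. The 7 intervals all include 0, that of Ceacam16 reaching from -0.068 to 0.86, while that of Opa1 runs from -1.02 to -0.72.

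Otol1 encodes otolin, a collagen-like protein, on chromosome 3 from 70007613 to 70028708 on the plus strand. It stood at 1.71, 2.83, 3.52 and 2.35 CPM in mice WT_4 to WT_8, and at 3.78, 2.66, 0.681 and 3.19 CPM in mice Het_2 to Het_491. A single Opa1+/- mouse, Het_484, lay far below the other 7, with 11 counts against 30 to 64. The means were 2.60 ± 0.766 and 2.58 ± 1.35 CPM (SD, n = 4 each), and the log2 fold change of -0.011 had an interval from -0.96 to 0.93 (adjusted p = 0.997 from edgeR).

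Oc90 encodes otoconin-90, the main protein of otoconia, related to secreted phospholipase A2. It lies on chromosome 15 from 65876053 to 65912397 on the minus strand. Its mean normalized count was 7.77, under the minimum of 10 set for testing. Counts were 5, 9, 19 and 6 in mice WT_4 to WT_8, and 9, 11, 2 and 2 in mice Het_2 to Het_491. WT_6 had the most, and Het_484 and Het_491 the fewest, with an exact 95% Poisson interval of 0.242 to 7.22 for a count of 2. Summed counts were 39 in WT and 24 in Opa1+/- mice, a scaled ratio of 0.67 with a 95% interval of 0.39 to 1.148 that covers counting error only. With no filter, edgeR gave a log2 fold change of -0.61 with an interval from -1.83 to 0.61.

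Levels of different genes can be set side by side per length of transcript, for which CPM were divided by the length in kilobases of the longest coding transcript in GENCODE vM21. On this scale Ceacam16 reached 71.7 ± 19.0 CPM per kb (SD, n = 8). Its ratio to Otog within a mouse had a geometric mean of 10.3 over the 8 mice. Otog followed at 7.13 ± 2.54, Otoa at 6.08 ± 1.41, Tectb at 2.53 ± 1.03 and Otogl at 1.89 ± 0.33 CPM per kb (SD, n = 8 each). Otol1 came to 1.20 ± 0.47, Tecta to 1.12 ± 0.29 and Oc90 to 0.23 ± 0.17 CPM per kb (SD, n = 8 each). The order was shared by all 8 mice for the steps from Ceacam16 to Otog, from Otoa to Tectb, from Otogl to Otol1 and from Tecta to Oc90. Otog lay above Otoa in 5 of 8 mice, Tectb above Otogl in 6 and Otol1 above Tecta in 5, so that these neighbours did not differ beyond their spread. The choice of length matters for Otoa, whose exons taken over all transcripts give 2.72 CPM per kb. It matters for Tectb as well, at 1.80 CPM per kb by that length, below Otogl at 1.89. In CPM not divided by length, Ceacam16 made up between 26.5% and 62.4% of the sum over the 8 genes and Otog between 19.1% and 44.1%.

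**Figure D3:**
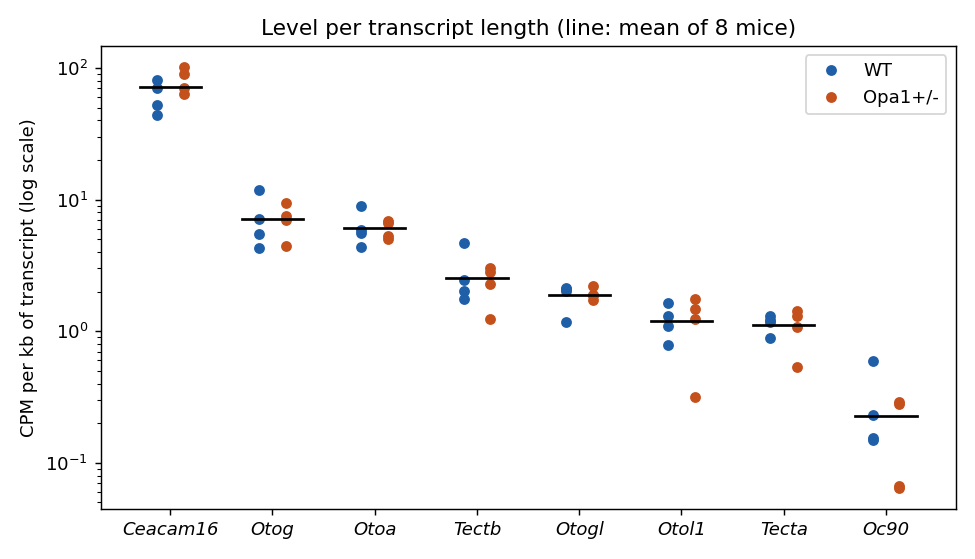
Level of each gene in CPM per kilobase of its longest coding transcript (log scale), in order of the mean over 8 mice (black line), with WT mice in blue and Opa1+/- mice in orange. Ceacam16 lies apart from the rest at a mean of 71.7, and Oc90 lies lowest at 0.23.

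The gel genes varied more between mice of a genotype than most genes tested. The coefficient of variation of CPM within WT mice ran from 16.0% for Tecta to 48.7% for Tectb among the 7 tested genes, and in Opa1+/- mice from 10.1% for Otogl to 52.2% for Otol1. Counting error alone would give between 2.18% for Ceacam16 and 14.6% for Otol1. The biological coefficient of variation that edgeR estimated for Otol1, Tectb, Otog and Tecta was larger than that of 96.5%, 94.4%, 92.8% and 89.5% of all genes tested. For Ceacam16, Otoa and Otogl the figure was 82.6%, 80.0% and 74.2%. Genes of all levels enter these shares, and a comparison with genes of like level was not made. For Opa1, for comparison, the coefficients of variation were 5.09% in WT and 6.74% in Opa1+/- mice. The median biological coefficient of variation was 0.265 for the gel genes and 0.126 over all genes tested. It was higher for erythroid (0.317), neutrophil and marrow (0.453) and skeletal muscle genes (0.939). The other marker and related lists had lower medians, from 0.119 for supporting cell genes to 0.195 for hair cell genes.

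Several of the genes varied together over the mice. All 6 tested genes other than Ceacam16 lay above their own geometric mean in WT_6 and in Het_2 and Het_7, while 0 of the 6 did in Het_484 and 1, Tecta, did in WT_4. Among these 6 genes, all 15 pairwise correlations of log2 CPM over the 8 mice were positive. These pairs share the same genes and mice, and the share of positive pairs among other genes was not counted. The pairs that passed by Pearson's r after adjustment were Otog with Otoa (Pearson r = 0.89, exact permutation p = 0.0031, adjusted 0.0404 over 21 pairs; Spearman rho = 0.93, p = 0.0022, adjusted 0.0469) and Tectb with Otog (r = 0.88, exact permutation p = 0.0038, adjusted 0.0404; rho = 0.86, p = 0.0107, adjusted 0.075), and by rho only the first passed. For Otog and Otoa r was 0.69 without WT_4 and WT_6, the 2 mice furthest from the median of Otog. For Tectb and Otog it was 0.73 without WT_6 and Het_484, those furthest from the median of Tectb. With the mean of each genotype removed, the coefficients were 0.89 and 0.90. Tecta and Otol1 had an equally high r of 0.89 that did not pass (exact permutation p = 0.0192, adjusted 0.0673). Their r was 0.46 without WT_8 and Het_484, and so rested in part on those mice. It was 0.58 without both Opa1+/- mice with 3-digit numbers. The values of a mouse share its library and scaling factor. Markers of other cochlear cells varied over the same mice. Summed CPM of hair cell genes were highest in WT_6 (391.3) and lowest in WT_4 (269.5), as were those of supporting cell genes (1335 and 918) and of fibrocyte genes (4092 and 2862). A few genes weigh most in such sums. Coch had a mean of 3135 CPM of the fibrocyte sum of 3629 in WT mice. Gjb2 had 446 and Gjb6 311 CPM of the supporting cell sum of 1198 in WT mice. In Het_484, low in the gel genes, supporting cell genes (1273) and fibrocyte genes (3882) were the highest of the Opa1+/- mice, and hair cell genes (306.9) lay close to their lowest sum among them (306.2). The part of these cells in the shared course of the gel genes was not tested.

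Ceacam16 did not follow the others. In WT_6, where the other 6 genes were above their means, it lay 0.67 below its own on the log2 scale, and in Het_484, where they were below, it lay 0.37 above. Its correlation was negative with 5 of the 6 genes, from -0.27 with Otol1 to -0.56 with Tectb, and 0.14 with Otogl. None of these 6 passed (for Tectb, exact permutation p = 0.142, adjusted 0.2703; rho = -0.43, p = 0.299, adjusted 0.3696), so that an opposite course was not shown at this number of mice. For Tectb, r was 0.25 without WT_6 and Het_484 together. It was -0.47 without both Opa1+/- mice with 3-digit numbers, a set that keeps WT_6, so the negative value did not rest on Het_484 alone. Without the 2 mice furthest from the median of the first gene of each pair, r of the remaining 5 pairs lay between -0.38 (Otol1) and -0.89 (Otoa).

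**Figure D4:**
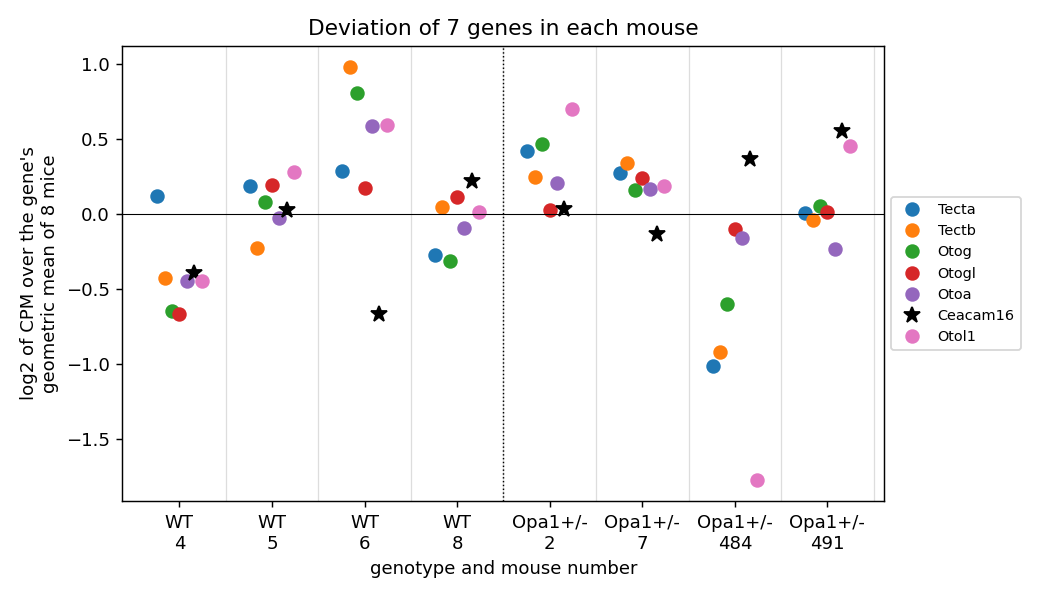
Log2 of the CPM in each mouse over the geometric mean of 8 mice (vertical axis) for the 7 tested gel genes, by genotype and mouse number (horizontal axis; dotted line between genotypes), with Ceacam16 as black stars. In WT_6 the other 6 genes lie above 0 and Ceacam16 at -0.67, and in Het_484 they lie below 0 and Ceacam16 at 0.37.

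Start regions of 5 of the 8 genes (Otol1, Otog, Otoa, Tecta and Tectb) are held in the RefSeq table of GRCm38.p6. Those of Otog and Tectb are shown because these genes moved together between mice, while that of Otoa, the closest to Otog, overlaps annotated UTR exons of Otoa and is not printed. The sequences are the 250 bases before the RefSeq start on the plus strand, chr7:46240737-46240986 and chr19:55180476-55180725. Capitals mark a match to CCAAT, the CCAAT box, on either strand.
Otog: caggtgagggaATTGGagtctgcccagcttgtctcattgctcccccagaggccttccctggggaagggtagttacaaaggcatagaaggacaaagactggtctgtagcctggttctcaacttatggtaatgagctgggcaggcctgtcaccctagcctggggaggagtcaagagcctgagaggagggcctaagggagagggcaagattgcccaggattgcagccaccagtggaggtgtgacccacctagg
Tectb: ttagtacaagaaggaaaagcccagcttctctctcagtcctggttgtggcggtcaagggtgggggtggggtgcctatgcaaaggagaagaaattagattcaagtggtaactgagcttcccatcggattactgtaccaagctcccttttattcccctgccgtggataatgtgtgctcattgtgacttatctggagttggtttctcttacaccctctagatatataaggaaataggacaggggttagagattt

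Neither gene held TATAAA, the only spelling of the TATA box searched, on either strand from 250 bases before to 50 after the start. The sequence shown for Tectb holds tatataag near its end, a variant spelling that the search did not cover. A GC box, searched as GGGCGG in the same way, was absent from both, and Tectb held no CCAAT box. In the same window Otoa and Otol1 each held a CCAAT box on the opposite strand, as Otog did, and both RefSeq starts of Tecta held none. Of all 32851 RefSeq start regions of that length, 13.6% held TATAAA, 37.4% the CCAAT box and 35.7% the GC box, and no 2 matches overlap in the sequences shown. A match describes letters, not a bound factor.

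For each gene with a mean of 1 CPM or more, the 3 of 17965 other genes whose log2 CPM over the 8 mice correlated best with it were listed. These coefficients are a description, the best of many over few mice. For Tectb they included Myo15 (r = 0.97), a myosin that builds stereocilia, and Plat (0.95), with B130055M24Rik (0.98) first. For Otog they were Loxhd1 (0.97), a hair cell stereocilia gene, Rhot2 (0.97) and Ttc24 (0.97). For Otoa they were Fgfr1 (0.98), 4930481A15Rik (0.97) and Msi1 (0.97), and for Otogl Lrfn3 (0.97), Gm7628 (0.96) and Zfp414 (0.96). Tecta was closest to Gm5561 (0.95), 4833422C13Rik (0.94) and Ntrk3 (0.93), Otol1 to Zfp133-ps (0.98), Gm1113 (0.96) and Nanos1 (0.95), and Ceacam16 to Dcps (0.95), Gm14928 (0.95) and Mettl3 (0.94). No gel gene appeared in the list of another.

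Of the collagens that form the fibrils of the tectorial membrane, 8 of 8 listed genes were tested and 0 passed in either direction, with a median log2 fold change of -0.063. Their transcripts also come from the cartilage and bone of the otic capsule. Col11a1, a chain of the fibrillar collagen type XI, had the lowest unadjusted p of the list. Its values were 41.4, 52.5, 55.6 and 55.1 CPM in mice WT_4 to WT_8, and 51.3, 43.8, 42.4 and 32.8 CPM in mice Het_2 to Het_491, so the genotypes overlapped. Its log2 fold change came to -0.26 (edgeR, standard error 0.137, adjusted p = 0.758), and that of Col9a1, a chain of collagen type IX, was -0.30 (standard error 0.203, adjusted p = 0.7902 from edgeR). The 6 genes listed for attachment to hair cells and for processing and hormonal control of the gel (Strc, Tmprss3, Hpn, Furin, Thra and Thrb) gave 0 calls in either direction and a median of -0.054. The lowest p there belonged to the thyroid hormone receptors Thrb, at -0.12 (standard error 0.108, adjusted p = 0.844 from edgeR), and Thra, at 0.080 (standard error 0.0755, adjusted p = 0.854 from edgeR).

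Of 8 genes of the otoconia and vestibular gels listed beside the 8 gel genes (Otop1, Nox3, Noxo1, Cyba, Zpld1, Sparcl1, Slc26a4 and Atp2b2), 0 passed in either direction, with a median of -0.058. Nox3, an NADPH oxidase that otoconia need to form, and Zpld1, a zona pellucida-domain gene of the semicircular canal cristae, had the lowest p. Nox3 stood at 12.7, 8.20, 25.3 and 3.77 CPM in mice WT_4 to WT_8, and at 11.9, 9.52, 5.51 and 0.83 CPM in mice Het_2 to Het_491. Zpld1 had 5, 25, 58 and 7 counts in the same WT mice and 9, 20, 8 and 3 in the same Opa1+/- mice. WT_6, the highest in Tectb, Otog, Otoa and Oc90, was thus the highest in both, and Het_491, the highest in Ceacam16, was the lowest in both. The log2 fold changes were -0.83 (standard error 0.681) for Nox3 and -1.18 (standard error 0.783) for Zpld1, with adjusted p of 0.8335 and 0.7902 from edgeR. The summed level of the 8 genes, most of it Sparcl1, ran from 1623 to 2153 CPM in WT and from 1705 to 1832 CPM in Opa1+/- mice, and 0 of the 8 was at 0 in all mice. The part of vestibular tissue in the spread of the gel genes was not tested.

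Markers of the other tissues in these samples give the setting of the values above. Total counts were 15978051 to 20828030 a mouse. Summed CPM of 11 supporting cell genes were 918 to 1335 in WT and 1006 to 1273 in Opa1+/- mice, those of 16 hair cell genes 269.5 to 391.3 and 306.2 to 328.4, and those of 3 fibrocyte genes 2862 to 4092 and 2950 to 3882. Bone genes (12) gave 1725 to 2003 and 1381 to 2038 CPM, erythroid genes (9 found of 10) 7746 to 21454 and 15062 to 25054, neutrophil and marrow genes (10) 431 to 1421 and 455 to 1176, and skeletal muscle genes (6) 192 to 1794 and 13.8 to 885. No difference between genotypes in these sums, or in those of the 3 related lists, passed (lowest p = 0.171 for the erythroid genes in an exact permutation test, two-sided, adjusted 0.857 over 10 lists). All 9 erythroid genes had a positive log2 fold change (median 0.56) and all 6 muscle genes a negative one (median -0.77), with 0 called in either list. Of the listed genes found in the tables, 0 were at 0 in all mice. WT_6, with the lowest Ceacam16, had the highest sums of muscle, supporting cell, hair cell and fibrocyte genes and of the collagen and vestibular lists. Erythroid genes were highest in Het_491, with the highest Ceacam16, and next in WT_4 (21454), with the second lowest. The part of these tissues in the levels of the gel genes was not tested.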

How the data were processed

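Cochlear RNA of 8 mice, 4 per genotype, was made into CORALL libraries and read in pairs of 80 nucleotides. The authors trimmed adapters, used unique molecular identifiers, mapped to GRCm38 with STAR and deposited 1 table of raw counts per mouse, neither normalized nor filtered. The counting program and its use of strand are not given in the sources used here. Entries named by a number (15, holding 0.112% to 0.124% of counts) were left out. Genotypes and mouse names came from the sample titles, and the age from the study's methods.

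Library sizes (15978051 to 20828030 counts on named genes) were scaled by TMM in edgeR 4.0.16, and genes with a mean normalized count over 10, the minimum of the study's methods, were tested by edgeR's quasi-likelihood test across all genes with Benjamini-Hochberg adjustment at 0.05. Standard errors are the log2 fold change over the square root of F, and 95% intervals use the fit's own degrees of freedom. Log2 CPM for correlations had a prior count of 2. Single values were compared by exact two-sided permutation tests over 70 arrangements (smallest p 0.0286), and correlations by all 40320 orders of the 8 mice. The edgeR, DESeq2 and limma voom fits were checked on simulated counts, and the exact test of single values on made-up values with a known answer. The permutation test of correlations was not checked in such a way. Alternatives were other scalings, filters and tools (DESeq2 1.42.0, limma 3.58.1), an adjusted threshold of 0.1, and mice left out. Positions, overlaps and lengths are from GENCODE vM21. R 4.3.3, Python 3.11.15, scipy 1.17.1 and matplotlib 3.10.9 were used.

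The 8 genes, the related lists and the tests were chosen with earlier results of these data known. Named besides the 8 genes were Opa1, the 2 genes of each related list with the lowest p and the 3 best-correlated genes of each member. Chosen after their values were seen were overlapping genes, and Coch, Gjb2, Gjb6 and Sparcl1 as large parts of a summed list. Whether the mice of a genotype differed in extraction is not given, and p-values measure the spread between these mice.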

Additional observations from a re-analysis of the deposited data

Results flagged for a closer look

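Otogl in WT_4, at 10.3 CPM, lay apart from the other WT mice, at 17.6 to 18.7 CPM, by more than Dixon's criterion allows for 4 values. The summed level of neutrophil and marrow genes also stood apart in WT_4, at 1421 CPM where WT_5, WT_6 and WT_8 had 431 to 528 CPM. Chance alone meets the criterion in about 1 in 20 groups, and 54 groups were examined. Whether the marrow genes and the Otogl value of this mouse are connected was not tested.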

How the results depend on the processing

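None of the 7 tested gel genes was called under any of 19 alternatives. Their median log2 fold change ranged from -0.18 to 0.17 with 1 mouse left out, was 0.14 without both Opa1+/- mice with 3-digit numbers and 0.24 without WT_6 and Het_484 together, and so had no stable sign. Ceacam16 kept a positive log2 fold change under all 19 alternatives, from 0.12 without both Opa1+/- mice with 3-digit numbers to 0.55 without WT_8. The adjusted threshold of 0.1 uses the main fit and could not alter this value, and robust estimation left it at 0.40. For the other 6 genes the sign was not stable, and the cause was not tested. With 1 mouse left out, the ranges were -0.23 to 0.15 for Tecta, -0.37 to 0.17 for Tectb, -0.20 to 0.33 for Otog, -0.11 to 0.13 for Otogl, -0.17 to 0.18 for Otoa and -0.25 to 0.30 for Otol1. Without WT_6 the log2 fold changes were 0.17 for Tectb, 0.33 for Otog, 0.18 for Otoa and 0.16 for Otol1. Without Het_484 they were 0.15 for Tecta, 0.15 for Otog, 0.013 for Otoa and 0.30 for Otol1. Without both Opa1+/- mice with 3-digit numbers they were 0.25 for Tecta, 0.095 for Tectb, 0.23 for Otog, 0.13 for Otoa and 0.30 for Otol1. Without WT_6 and Het_484 together, an alternative chosen after seeing the data, they were 0.22, 0.38, 0.50, 0.24 and 0.47 for the same genes. Otogl was at -0.11 without WT_4, and limma voom gave 0.13 for Otog and 0.083 for Otoa. Across these alternatives the adjusted p of the 7 genes lay between 0.664 and 0.9999. The log2 ratio of Tectb to Tecta ranged from -0.22 to 0.20 with 1 mouse left out, positive without WT_6 (0.20), WT_8 (0.073) or Het_2 (0.024). That of Otogl to Otog ranged from -0.15 to 0.21, negative without WT_6 (-0.15), without Het_484 (-0.10) and without both Opa1+/- mice with 3-digit numbers (-0.15).

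Over all genes, 5 calls became 23 with DESeq2, 10 with limma voom, 10 with robust estimation, 12 with no filter, 11 at an adjusted threshold of 0.1, 0 without both Opa1+/- mice with 3-digit numbers, 1 without WT_6 and Het_484, and 0 to 9 with 1 mouse left out. No paired analysis was made, because the sample titles do not give the litter of a mouse. With 4 mice a genotype, the intervals of Tectb and Otol1 leave room for changes of nearly 1 on the log2 scale, and Oc90 was too low to be tested.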
